A study of Mus musculus with 24 samples.

Results

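Left ventricles of male Per2-/- mice were profiled after ischemic preconditioning (IP0) or after a sham operation. Each group held 3 arrays, so 6 of the 24 arrays in the series made up the comparison, and all 18820 genes whose probe sets are paired with 1 symbol were tested. A gene with several such probe sets was represented by the one brightest on average across the 24 arrays. The preconditioned hearts had 4 cycles of 5 minutes of ischemia, each followed by 5 minutes of reperfusion, and were harvested with no further ischemia. The sham hearts were labelled as untreated and sham operated. Mice of both groups carried the genotype labelled Per2 KO on the strain labelled BL6C57, with Per2 lost in every tissue, so the treatment is the only labelled difference between them. They were 12 to 16 weeks old, had been kept in a 14/10 hour light-dark cycle, and were studied at zeitgeber time 0. The groups set beside them were wildtype hearts of the same strain label with the same 2 treatments, Per2-/- hearts after 30 minutes of ischemia (I30), and Per2-/- hearts in which ischemia of the same length was followed by 60 minutes of reperfusion (I30R60), again with 3 arrays each. All mice were anesthetized and catheterized, and the hearts were flushed before harvest.

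Per2 is a repressor of the circadian clock, and mice without it were used by the study to ask how the heart responds to ischemia. In ischemic preconditioning, short bouts of ischemia make the heart more resistant to a later long one. Cells under such stress switch on immediate early genes, which need no new protein to be transcribed. Among them are the AP-1 subunits of the Fos and Jun families, the related factor Atf3 and the NR4A nuclear receptors, followed by genes that limit signalling, growth or inflammation. Heart muscle also makes its own set of microRNAs, short RNAs that pair with messenger RNAs through their seed and lower their output.

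Values are log2 intensities, on which a difference of 1 is a 2-fold change. Correlations between arrays of one group were 0.981 to 0.984 in IP0 hearts and 0.985 to 0.987 in sham hearts. Array medians were 4.39 to 4.42 in IP0 hearts and 4.45 to 4.52 in sham hearts. The 7 markers of heart muscle summed to log2 values of 15.61 to 15.69 in the 6 hearts, as the tissue label asks. Markers of atrial muscle were uneven, with a sum of 14.14 in sham replicate 3, 12.71 in IP0 replicate 3 and 10.25 to 10.45 in the other 4 hearts. Sham replicate 3 was also the lowest of the sham hearts for 14 of the 22 genes that rose after IP0. These sham hearts took part in the choice of the 22 genes, and the share over all genes was not counted. A link to the atrial transcripts was not tested. Per2 itself read 5.69, 5.65 and 5.63 in sham hearts and 5.19, 5.65 and 5.60 in IP0 hearts, against 5.33, 5.94 and 6.10 in wildtype sham hearts. Its probe set did not set the genotypes apart, and where its probes lie relative to the deletion is not given in the sources used here, so it does not check the labels. In RNA of whole tissue, fewer cells of a type and less RNA per cell cannot be told apart.

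After IP0, few genes passed the test in Per2-/- hearts, and more rose than fell. limma with Benjamini-Hochberg adjustment called 30 genes (0.159% of those tested) at an adjusted p under 0.05, of which 22 rose (0.117%) and 8 fell (0.0425%). Rises were 73.3% of these calls and 90.9% when each array was centred on its median. At least 2-fold changes were called for 13 genes, all of them rises. In each of the 30 genes the 3 IP0 hearts lay on one side of the 3 sham hearts, a separation that 6.38% of all genes had upwards and 8.13% downwards. The same 6 hearts chose the 30 genes, which by itself favours such a separation, so it is a description and adds no support. The median change over all genes was -0.02, and 1549 genes had an unadjusted p under 0.05. The count fell from 30 to 13, 10 and 15 without IP0 replicate 1, 2 or 3 and to 17 without sham replicate 3. It was 11 without both arrays that were rich in atrial transcripts, and 1 (Atf3) when only the 6 arrays entered the model. Atf3, Mir1a-2, Gadd45g, Jun, Adamts1, Rgs1, Plk2 and Nckipsd were called whichever of the 6 arrays was left out. Otud1, Xirp1, Chrng, Mirlet7f-1, Ifitm3 and Eif2d lost the call without any one of them, and the other 16 genes lost it in some of these fits. Adamts1 and Plk2, called in all of these fits, lost the call without both atrial-rich arrays (limma adjusted p = 0.0609 and 0.0556).

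**Figure D1:**
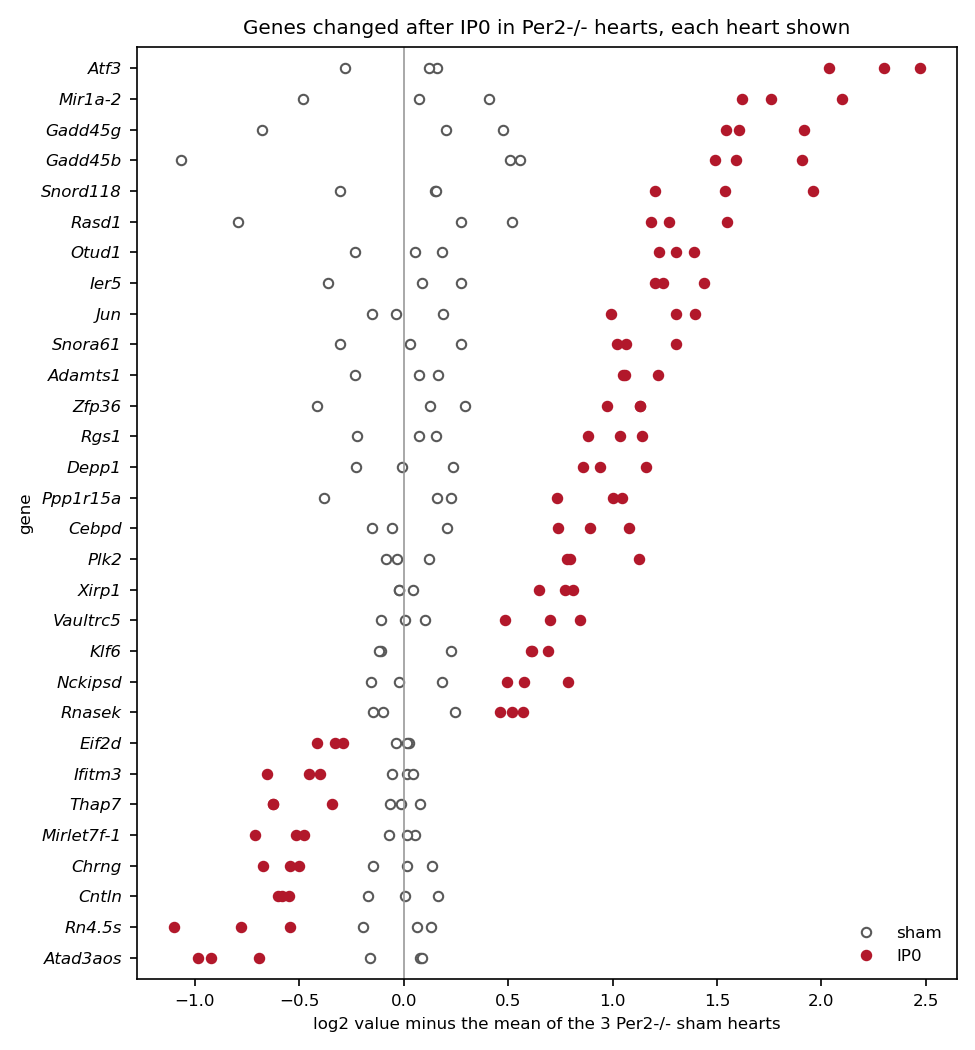
The 30 genes called after IP0 in Per2-/- hearts, ordered by log2 difference. Each circle is 1 heart, drawn as its log2 value minus the mean of the 3 sham hearts (open circles sham, red circles IP0), and red and open circles do not overlap in any row. The genes were chosen in these same hearts, which by itself favours such a separation. The open circle far to the left in Gadd45b, Rasd1 and Gadd45g is sham replicate 3.

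The transcription factor Atf3, a member of the ATF/CREB family that pairs with AP-1 proteins, rose the most. Its log2 values were 8.45, 8.41 and 8.01 in sham hearts and 10.76, 10.59 and 10.32 in IP0 hearts. The highest sham heart stood well below the lowest IP0 heart, and the difference was 2.27 (standard error 0.28, limma adjusted p = 0.000929). Jun, the AP-1 subunit that Atf3 can pair with, read 9.33, 8.99 and 9.11 in sham and 10.54, 10.45 and 10.14 in IP0 hearts, a rise of 1.23 (standard error 0.18, adjusted p = 0.0034). Klf6, a zinc finger factor induced by injury, rose by 0.64 from 8.34, 8.01 and 7.99 to 8.81, 8.73 and 8.73 (standard error 0.12, adjusted p = 0.0275). It was the only member called among 15 EGR and KLF factors, whose median difference was 0.05 against -0.02 over all genes. The share of all genes called as rises was 0.117%.

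Of 10 AP-1 subunits and partners tested, Atf3 and Jun rose and none fell, and all 10 had differences above 0, with a median of 0.70. Of all genes 0.117% were called as rises, and 8591 of 18820 had differences above 0. In 8 of the 10 every IP0 heart lay above every sham heart, a separation that 6.38% of all genes had. Fos, the classic partner of Jun, had sham values of 7.93, 8.19 and 7.21 and IP0 values of 9.27, 8.98 and 8.70. These groups did not overlap, but the wide spread of Fos between hearts left the difference of 1.21 (standard error 0.36) short of the threshold (limma adjusted p = 0.289). Fosl2 had a difference of 0.54, Mafk of 0.42 and Jund of 0.41, with adjusted p values of 0.365, 0.311 and 0.317. The 3 NR4A receptors, which act without a known hormone, gave like values: Nr4a1, Nr4a2 and Nr4a3 had differences of 0.74, 0.66 and 0.91, none called, and in each the IP0 hearts lay above the sham hearts. Nr4a1 read 10.08, 10.26 and 9.79 in sham and 11.00, 10.74 and 10.62 in IP0 hearts (adjusted p = 0.342).

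Promoters of genes that rose together are shown because ATF/CREB and AP-1 dimers bind sites of the form TGACGTCA and close relatives of it. The RefSeq promoter table (GRCm38.p6) holds 13 of the 22 genes that rose, and the 250 bases before the start were searched on both strands for TGACGTCA, which is its own reverse complement, TTACGTCA and TGACATCA. These 3 motifs were chosen after the sequences were seen, do not overlap in these windows, and are given with no test. TGACGTCA lay in 2 of the 13 windows (Plk2 and Ppp1r15a) and in 2.39% of the 14749 genes with a promoter in the table, TGACATCA in 2 (Jun and Klf6) and in 2.54%, and TTACGTCA in 1 (Atf3) and in 0.651%. The windows of Atf3 (chr1:191183334-191183583, minus strand), Jun (chr4:95052223-95052472, minus strand), Plk2 (chr13:110394794-110395043, plus strand) and Ppp1r15a (chr7:45526269-45526518, minus strand) follow, read 5′ to 3′ towards the start, with the motif in capitals.
Atf3: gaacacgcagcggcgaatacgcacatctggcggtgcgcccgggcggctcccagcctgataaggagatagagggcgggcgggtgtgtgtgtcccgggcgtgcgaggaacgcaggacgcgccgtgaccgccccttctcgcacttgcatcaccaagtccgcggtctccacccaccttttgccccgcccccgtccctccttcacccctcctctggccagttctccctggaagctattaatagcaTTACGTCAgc
Jun: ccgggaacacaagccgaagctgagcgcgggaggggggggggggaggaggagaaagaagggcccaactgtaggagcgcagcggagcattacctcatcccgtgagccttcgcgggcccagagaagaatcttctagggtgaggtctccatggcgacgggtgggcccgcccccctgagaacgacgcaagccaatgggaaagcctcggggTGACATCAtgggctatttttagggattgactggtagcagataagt
Plk2: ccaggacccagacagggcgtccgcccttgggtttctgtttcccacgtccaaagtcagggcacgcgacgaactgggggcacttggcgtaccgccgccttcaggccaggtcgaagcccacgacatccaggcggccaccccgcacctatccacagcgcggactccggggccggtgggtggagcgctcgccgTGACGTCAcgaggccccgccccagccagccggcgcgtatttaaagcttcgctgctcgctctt
Ppp1r15a: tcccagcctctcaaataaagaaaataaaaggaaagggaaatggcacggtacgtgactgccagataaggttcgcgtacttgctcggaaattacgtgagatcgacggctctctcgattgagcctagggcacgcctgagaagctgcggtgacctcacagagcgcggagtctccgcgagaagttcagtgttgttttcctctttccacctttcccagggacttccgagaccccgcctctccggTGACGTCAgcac
A motif in a window is a match of letters, not a binding site shown in these hearts. In the Atf3 window the motif begins 10 bases before the start and in that of Jun 45 bases before it.

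Of 25 other immediate early genes, 5 rose and none fell, and all 25 had differences above 0, with a median of 0.46. The shares over all genes were 0.117% called as rises and 8591 of 18820 with differences above 0. Otud1, a deubiquitinase, read 7.69, 7.27 and 7.56 in sham and 8.81, 8.73 and 8.89 in IP0 hearts, a rise of 1.31 (standard error 0.25, limma adjusted p = 0.0375). Zfp36, which encodes tristetraprolin and speeds the decay of AU-rich messages of cytokines, went from 8.27, 8.44 and 7.73 to 9.28, 9.28 and 9.12, a rise of 1.08 (standard error 0.19, adjusted p = 0.0161). The 3 IP0 hearts differed little from each other in both genes. Rgs1, which shuts off signalling from G protein-coupled receptors, rose by 1.02 from 3.51, 3.59 and 3.21 to 4.47, 4.58 and 4.32 (standard error 0.13, adjusted p = 0.0014). Its sham values are low on arrays that carry no detection calls, so the size of this rise is uncertain. Plk2, a polo-like kinase induced by stress, rose by 0.90 from 7.59, 7.39 and 7.44 to 8.60, 8.27 and 8.25 (standard error 0.14, adjusted p = 0.00496). Ier5, a cofactor of the heat shock factor, rose by 1.29 (standard error 0.22, adjusted p = 0.0121). Arid5a, an RNA-binding protein, was the next by p value, with a difference of 0.86 and an adjusted p of 0.202. Among 10 MAP kinase phosphatases, which end the signal that induces these genes, none was called and the median was 0.22. Dusp1 had a difference of 0.53 and Dusp7 of -0.32, with adjusted p values of 0.366 and 0.541.

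Gadd45b and Gadd45g, small proteins that act in growth arrest and DNA repair and bind stress kinases, stood out in a list of 15 genes of growth arrest and p53, in which no other gene was called and the median was 0.19. Over all genes the share called as rises was 0.117% and the median difference -0.02. Gadd45g read 7.48, 7.21 and 6.33 in sham and 8.92, 8.62 and 8.55 in IP0 hearts, a rise of 1.69 (standard error 0.22, limma adjusted p = 0.0014). Gadd45b read 7.72, 7.77 and 6.15 in sham and 9.12, 8.80 and 8.70 in IP0 hearts, a rise of 1.66 (standard error 0.29, adjusted p = 0.0162). In both, sham replicate 3 was the lowest heart. Without that array the rises were 1.35 and 1.13, with limma adjusted p values of 0.00396 and 0.0285 in that fit. Ddit4, an inhibitor of the growth regulator mTORC1, had a difference of 1.24 (adjusted p = 0.243), and Cdkn1a, the cell cycle inhibitor p21, one of 0.91 (adjusted p = 0.452). Cdkn1a read 7.60 in sham replicate 3 and 9.59 to 9.97 in the other 5 hearts, and its difference was 0.24 without that array.

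Ppp1r15a, also called GADD34, brings protein phosphatase 1 to the translation factor eIF2-alpha and so restarts protein synthesis after stress. It rose by 0.93 from 7.13, 7.20 and 6.59 to 7.98, 8.02 and 7.71 (standard error 0.16, limma adjusted p = 0.0134). It was the only call among 19 genes of the integrated stress and unfolded protein responses, which had a median of 0.11. The next largest difference in that list, 0.70 for Chac1, an enzyme that breaks down glutathione, had an adjusted p of 0.467. Over all genes the share called as rises was 0.117% and the median difference -0.02. Rasd1, a Ras-like protein induced by glucocorticoids, rose by 1.33 from 6.81, 7.06 and 5.75 to 8.08, 7.81 and 7.72 (standard error 0.26, adjusted p = 0.0375). Cebpd, a transcription factor of the acute phase response, rose by 0.90 from 4.65, 5.01 and 4.75 to 5.54, 5.69 and 5.88 (standard error 0.17, adjusted p = 0.0327). The sham and IP0 hearts stood apart in each of these genes. Depp1, a target of FoxO factors, rose by 0.99 from 9.10, 8.86 and 8.64 to 10.03, 9.72 and 9.80 (standard error 0.16, adjusted p = 0.0102).

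Genes of the muscle and its matrix were few among the calls. Xirp1, an actin-binding protein of the intercalated discs, had almost the same value in all sham hearts (9.44, 9.38 and 9.38) and rose by 0.74 to 10.17, 10.05 and 10.21 (standard error 0.13, limma adjusted p = 0.0203). It was the only call of 13 genes of ventricular stress, where 0.117% of all genes were called as rises. Nppb, which encodes the natriuretic peptide BNP and belongs to that list, had a difference of 0.71, from 9.87, 9.63 and 9.65 to 10.59, 10.32 and 10.39, that did not pass the test (standard error 0.19, adjusted p = 0.199). Adamts1, a secreted protease that cuts matrix proteoglycans, rose by 1.11 from 8.12, 8.04 and 7.73 to 9.18, 9.02 and 9.01 (standard error 0.16, adjusted p = 0.00315), the only call of 27 growth factors and vascular signals (median 0.19). In that list Ccn1, a matrix protein also known as Cyr61, had a difference of 0.67 (adjusted p = 0.0997), Edn1, which encodes endothelin 1, one of 1.03 (adjusted p = 0.195), and the protease Adamts4 one of 1.29 (adjusted p = 0.237). Nckipsd, an adaptor that links Nck to actin, and Rnasek, a membrane ribonuclease, belonged to no list. Nckipsd rose by 0.62 from 5.71, 5.84 and 6.05 to 6.36, 6.45 and 6.65 (standard error 0.09, adjusted p = 0.00409), and Rnasek by 0.52 from 8.38, 8.72 and 8.33 to 9.04, 8.94 and 8.99 (standard error 0.10, adjusted p = 0.0375).

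Among the 22 rises was Mir1a-2, 1 of the 2 genes of miR-1, the most abundant microRNA of heart muscle. Mature strands are shown for the heart muscle microRNA genes the RefSeq tables hold, with the seed (bases 2 to 8) in capitals, and for let-7f, whose gene fell.
miR-1a-1-5p: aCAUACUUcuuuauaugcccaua
miR-208a-3p: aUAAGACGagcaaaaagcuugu
miR-499-5p: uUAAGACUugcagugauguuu
let-7f-5p: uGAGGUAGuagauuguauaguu
They lie at chr2:180389057-180389079 (plus strand), chr14:54949072-54949093 (minus strand), chr2:155622893-155622913 (plus strand) and chr13:48537889-48537910 (minus strand) of GRCm38.p6. miR-208a-3p and miR-499-5p, which are carried in introns of heart myosin genes, share 6 of the 7 bases of their seeds. The first sequence is the 5′ strand of Mir1a-1 and not the better known 3′ strand of miR-1. In the annotation Mir1a-1 and Mir133a-2 lie inside 1 host transcript, and Mir1a-2 and Mir133a-1 inside another.

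Mir1a-2 read 2.71, 3.26 and 3.60 in sham and 5.29, 4.95 and 4.81 in IP0 hearts, a rise of 1.82 with the smallest p of all genes (standard error 0.20, limma adjusted p = 0.000342). Mir1a-1 read 2.06, 2.41 and 2.79 in sham and 3.89, 4.30 and 3.49 in IP0 hearts, which puts IP0 higher by 1.47 without a call (standard error 0.31, adjusted p = 0.0688). Mir1a-1 did pass with a variance trend and robust variances (limma adjusted p = 0.0427), with array weights (0.0144) and with centred arrays (0.046). The hearts separated fully in both genes of miR-1. Mir133a-2 had a difference of 0.98, Mir208a of 0.95, Mir133a-1 of 0.48 and Mir499 of 0.44, with adjusted p values of 0.265, 0.245, 0.606 and 0.6. The list of 11 heart muscle microRNA genes had a median of 0.47, with 1 rise and no fall, against a median of -0.02 over all 306 genes with a Mir symbol, a group formed after values were seen, of which 1 rose (Mir1a-2) and 1 fell (Mirlet7f-1). Over all genes 0.117% were called as rises and 0.0425% as falls. Primary transcript, hairpin and mature strand were not measured separately here. The values of Mir1a-1 and Mir1a-2 in sham hearts, at most 2.79 and 3.60, are low on arrays that carry no detection calls, so whether these transcripts were above background there is not known and the size of each difference is uncertain.

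After I30 and I30R60 no heart reached the IP0 level of Mir1a-2. It read 2.94, 3.48 and 3.49 after I30 and 2.31, 2.11 and 1.84 after I30R60. It was higher after IP0 than after I30 by 1.71 (standard error 0.20, limma adjusted p = 0.000882) and than after I30R60 by 2.93 (standard error 0.20, adjusted p = 9.74e-08). Mir1a-2 was called as a rise in the same IP0 hearts, which by itself favours such differences. Mir208a was higher after IP0 by 1.52 than after I30 (adjusted p = 0.0252) and by 2.15 than after I30R60 (adjusted p = 0.000116). Mir1a-1, Mir133a-1, Mir133a-2 and Mir499 were higher after IP0 than after I30R60 by 1.81, 1.81, 1.71 and 0.99 (adjusted p = 0.00238, 0.000142, 0.0017 and 0.0134). Against the same sham hearts that served for IP0, Mir1a-2 fell by 1.10 after I30R60 (adjusted p = 0.0023). In all, 6 of the 11 genes were called higher after IP0 than after I30R60 and 3 than after I30, none lower. Over all genes 1.23% were called higher than after I30R60 and 0.138% than after I30. The values of Mir1a-2 after I30 and I30R60 did not exceed its highest sham value. The size of its differences from them, and of its fall after I30R60, is therefore uncertain for the same reason as in sham hearts.

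**Figure D2:**
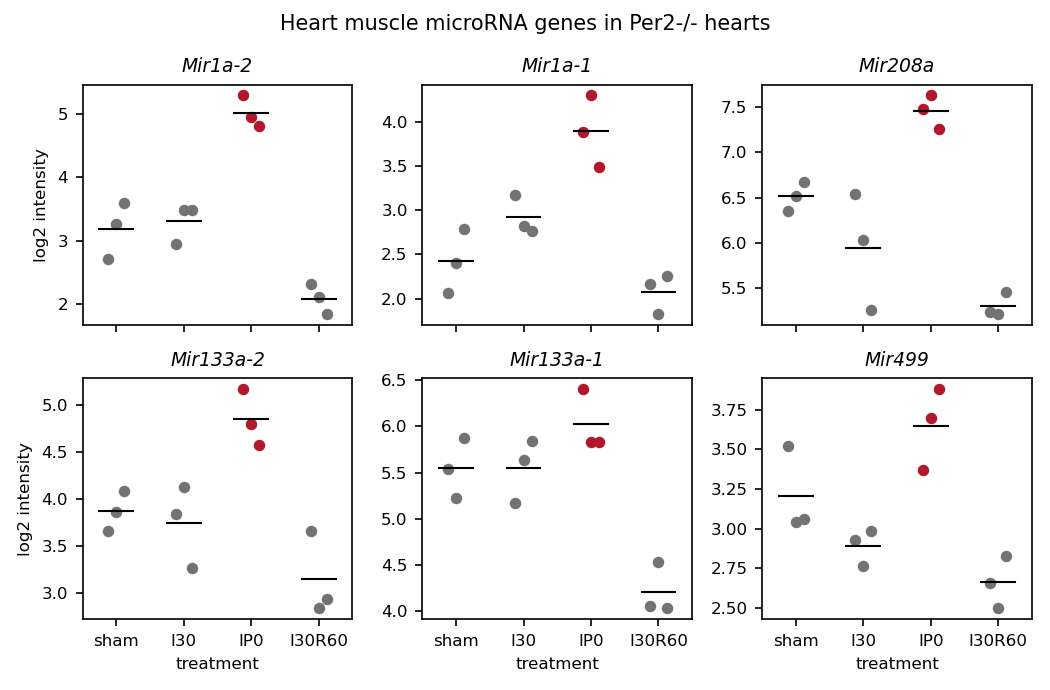
Log2 intensity (vertical axes, which differ between panels and do not start at 0) of 6 heart muscle microRNA genes in Per2-/- hearts by treatment. Each point is 1 heart, red for IP0, and each line the mean of 3. Mir1a-2, Mir1a-1, Mir208a and Mir133a-2 have all IP0 hearts above all other hearts.

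Other small RNA genes moved as well. Snord118, which encodes the U8 RNA needed to process ribosomal RNA, rose by 1.57 from 4.48, 4.93 and 4.94 to 5.99, 6.32 and 6.74 (standard error 0.26, limma adjusted p = 0.011). Its 2 probe sets hold identical values and count as 1. Snora61, a guide for pseudouridine, rose by 1.13 from 5.49, 6.07 and 5.83 to 6.82, 7.10 and 6.86 (standard error 0.18, adjusted p = 0.00805), and Vaultrc5, a vault RNA, by 0.68 from 6.77, 6.68 and 6.56 to 7.16, 7.37 and 7.51 (standard error 0.12, adjusted p = 0.0128). All 3 were also higher after IP0 than after I30, by 1.28, 1.08 and 0.76 (adjusted p = 0.0492, 0.0208 and 0.0102). The same IP0 hearts chose these genes, which by itself favours a higher mean after IP0. Of 56 genes with a Snora or Snord symbol, a group formed after values were seen, 2 rose and none fell, and the median was 0.17. Over all genes 0.117% were called as rises and 0.0425% as falls.

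The 8 falls were small, none reaching 2-fold. Atad3aos, by its symbol an antisense transcript of Atad3a, fell by 0.87 from 4.10, 4.34 and 4.35 to 3.57, 3.34 and 3.28 (standard error 0.15, limma adjusted p = 0.0128). Rn4.5s, the 4.5S RNA of rodents, fell by 0.81 from 6.96, 7.28 and 7.21 to 6.05, 6.61 and 6.37 (standard error 0.15, adjusted p = 0.0275). The groups stood apart in both. Ifitm3, an interferon-induced membrane protein that blocks virus entry, fell by 0.50 from 10.55, 10.62 and 10.65 to 10.15, 10.21 and 9.96 (standard error 0.09, adjusted p = 0.0274). Thap7, a chromatin-bound repressor, fell by 0.53 from 6.05, 6.20 and 6.10 to 5.49, 5.49 and 5.77 (standard error 0.08, adjusted p = 0.00763). It was also lower than after I30 (-0.46, adjusted p = 0.0252), a direction favoured by its choice in the same IP0 hearts. Eif2d, a translation initiation factor, had the smallest change of all calls, a fall by 0.35 (standard error 0.07, adjusted p = 0.0375). Cntln, a centriole protein, Chrng, the fetal gamma subunit of the muscle acetylcholine receptor, and Mirlet7f-1 fell by 0.58, 0.57 and 0.57 (adjusted p = 0.045, 0.0442 and 0.0375). The highest value of Chrng in these 6 hearts was 3.49 and of Mirlet7f-1 3.07, as low as those of the miR-1 genes in sham hearts. The IP0 values of Atad3aos, at most 3.57, were as low.

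No gene passed among 22 cytokines and chemokines (median 0.20), 15 genes of NF-kB feedback (0.17) and 13 of JAK-STAT feedback (0.03). The neutrophil attractant Cxcl2 had a difference of 2.05, with sham values of 6.03, 5.54 and 3.00 and IP0 values of 7.18, 7.19 and 6.35 (standard error 0.66, limma adjusted p = 0.342). Il6, the main inducer of the acute phase, had a difference of 2.02, with sham values of 4.56, 4.27 and 2.28 and IP0 values of 6.05, 6.10 and 5.02 (standard error 0.47, adjusted p = 0.117). In both genes all IP0 hearts lay above all sham hearts, and sham replicate 3 lay far below the other sham hearts. Without that array the difference was 1.12 for Cxcl2, 1.31 for Il6 and 0.91 for Ccl3. Ccl3, a chemokine, had a difference of 1.78 with all arrays (adjusted p = 0.297), Tnf one of 1.14 (adjusted p = 0.365), Socs3, which ends Il6 signalling, one of 1.49 (adjusted p = 0.18), and Nfkbid, an inhibitor of NF-kB, one of 0.70 (adjusted p = 0.197). Of 7 markers of neutrophils none was called. Differences were above 0 for 6 of them and below 0 for Csf3r (-0.26). The sum of the 7 was 7.08 to 7.44 in IP0 hearts and 6.39 to 6.72 in sham hearts, lowest in sham replicate 3. In wildtype hearts this sum was 7.02 to 7.30 after IP0 and 6.96 to 7.16 after sham. Retnlg, S100a8 and S100a9 had differences of 1.65, 0.96 and 0.89 in Per2-/- hearts (adjusted p = 0.297, 0.393 and 0.399). Their part in the cytokine values was not tested.

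Among metabolic genes none was called, which does not show that they were unchanged. This held for 17 targets of the fatty acid receptor PPAR-alpha (median -0.08), 20 genes of fatty acid beta-oxidation (-0.03) and 31 of glycogen and glucose use (0.06). At an unadjusted p under 0.05 there were 1, 0 and 7 genes of these lists, against 1549 of all 18820. Every IP0 heart lay above every sham heart in 2, 2 and 8 of them and below in 4, 0 and 4. Of all genes 6.38% lay above and 8.13% below in this way. Ehhadh, an enoyl-CoA hydratase of the peroxisome, read 6.51, 6.65 and 6.29 in sham and 6.27, 6.41 and 5.53 in IP0 hearts, groups that overlapped, with a difference of -0.41 (standard error 0.20, limma adjusted p = 0.608) that was -0.15 without IP0 replicate 3. Cpt1a, which brings fatty acids into mitochondria, had a difference of -0.30 with all IP0 hearts below the sham hearts (adjusted p = 0.424). Ppp1r3c, which targets protein phosphatase 1 to glycogen, read 9.23, 9.44 and 8.69 in sham and 9.25, 9.32 and 9.64 in IP0 hearts, with overlapping groups and 0.29 between their means (standard error 0.17, adjusted p = 0.717). Its relative Ppp1r3b had -0.41 (adjusted p = 0.393), and Slc16a3, a lactate exporter, 0.65 (adjusted p = 0.147). Among 18 clock genes none was called and the median was -0.01. Csnk1d, a kinase that marks Per proteins, had a difference of 0.22 and Per1 of 0.32, with adjusted p values of 0.385 and 0.424.

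**Figure D3:**
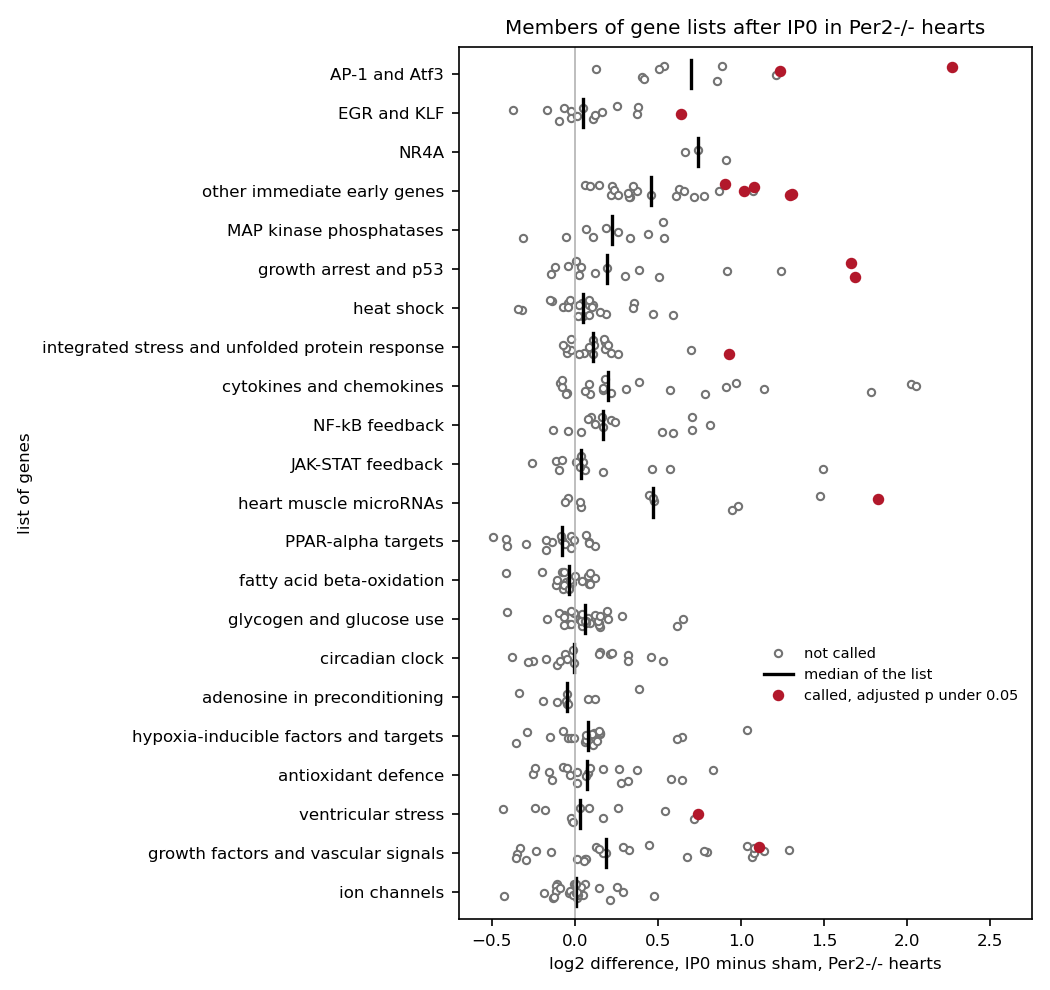
Log2 difference between IP0 and sham Per2-/- hearts (horizontal axis) for the tested members of 22 gene lists (rows), with called genes in red and the median of each list as a bar. The 10 AP-1 members and 25 other immediate early genes all lie to the right of 0, while the metabolic lists centre near it.

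The response was next set beside that of wildtype hearts, which share no array with it. Both comparisons came from 1 model over the 24 arrays and used the same estimate of the spread of each gene. A gene with a small spread is thus favoured for a call in both genotypes, and the calls are not independent. All 30 genes called in Per2-/- hearts had the same sign in wildtype hearts, against 60.0% of all genes, and 17 of the 22 rises (wildtype background 0.521% for rises) but 1 of the 8 falls (Ifitm3, background 0.329%) were called there too. The 22 rises had a median of 1.09 in Per2-/- and 1.14 in wildtype hearts, although they were chosen in the first. The 8 falls had a median size of 0.57 in Per2-/- and 0.17 in wildtype hearts. Turned around, the 160 genes called in wildtype hearts (0.850% of those tested) had a median size of 0.68 there and 0.26 in Per2-/- hearts, with the same sign in 91.9%. A choice made in one genotype by itself favours a larger change there. The 5 rises not called in wildtype hearts were Gadd45b, Cebpd, Depp1, Vaultrc5 and Nckipsd. Nckipsd changed by 0.62 in Per2-/- and by 0.08 in wildtype hearts, where sham values of 6.08, 6.01 and 5.92 met IP0 values of 6.02, 6.09 and 6.15.

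**Figure D4:**
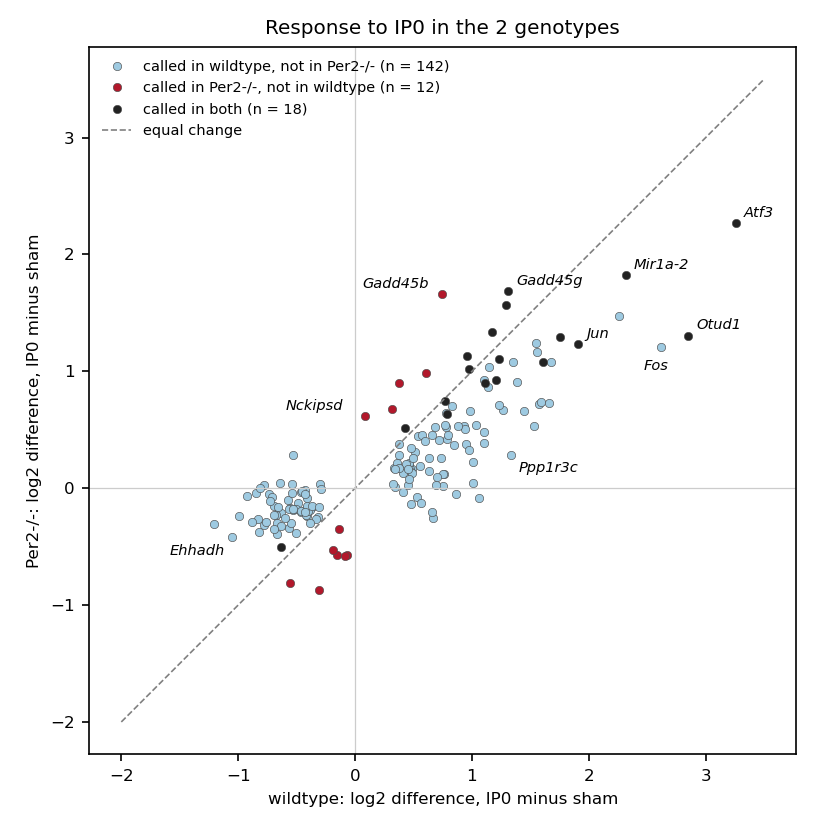
Log2 difference between IP0 and sham in wildtype (horizontal axis) and Per2-/- hearts (vertical axis) for the genes called in either genotype, 18 of them in both. Points on the dashed line would have changed equally. Otud1 and Fos lie below it and Gadd45b and Nckipsd above it, differences that did not pass the test of interaction.

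limma called no gene for the interaction of genotype and IP0, the test of the difference between the responses. In that test 905 genes had an unadjusted p under 0.05 (smallest limma adjusted p = 0.217). Its median standard error was 0.19, against 0.14 for IP0 against sham in Per2-/- hearts. The lack of calls does not show that the genotypes responded alike. Otud1 rose by 1.31 in Per2-/- and 2.85 in wildtype hearts, a difference of -1.54 (standard error 0.36, unadjusted p = 0.000356, limma adjusted p = 0.672). For Ppp1r3c the difference was -1.04 (standard error 0.24, unadjusted p = 0.000377, adjusted p = 0.672) and for Nckipsd 0.54 (standard error 0.13, unadjusted p = 0.000532, adjusted p = 0.672). In Otud1 and Ppp1r3c the genotypes overlapped after IP0 and stood apart in the sham hearts. Otud1 read 6.12, 6.24 and 6.14 in wildtype sham hearts, far below the Per2-/- sham hearts, and 8.45, 9.33 and 9.25 after IP0, a range that took in the Per2-/- IP0 hearts. Ppp1r3c read 8.40, 8.16 and 8.13 in wildtype sham hearts, below every Per2-/- sham heart, and 9.45, 9.68 and 9.55 after IP0. Over the 22 rises, every Per2-/- sham heart exceeded every wildtype sham heart in 4 (Atf3, Jun, Otud1 and Plk2) and lay below in 1 (Xirp1), where 8.35% of all genes lay above and 5.96% below. After IP0, every Per2-/- heart exceeded every wildtype heart in 2 (Nckipsd and Vaultrc5), and in the other 20 the genotypes overlapped. Of all genes 5.91% lay above and 5.59% below after IP0.

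Compared with Per2-/- hearts after I30, the IP0 hearts had 33 genes called (0.175%), 26 of them higher (0.138% of those tested) and 7 lower (0.0372%). The split was 44 and 32 with array weights, 51 and 40 at an adjusted p under 0.10, and 25 and 18 without I30 replicate 1. Of the 22 genes that rose after IP0, 12 were called higher than after I30. The same 3 IP0 hearts chose the 22 genes, which by itself favours a higher mean after IP0, so the count is a description. Among the 12 were Atf3 (1.55, limma adjusted p = 0.0252), Jun (1.07, adjusted p = 0.0208) and Rgs1 (1.07, adjusted p = 0.000882). Against the shared sham hearts no gene was called after I30, with 1343 at an unadjusted p under 0.05. The largest falls against I30 were of the zinc finger gene Zfp60 (-0.91, adjusted p = 0.0252) and the olfactory receptor gene Olfr670 (-0.86, adjusted p = 0.0252). The count of 33 was 10, 4 and 13 without IP0 replicate 1, 2 or 3 and 6 and 9 without I30 replicate 2 or 3.

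Compared with I30R60, 541 genes (2.87%) were called, 231 higher after IP0 (1.23%) and 310 lower (1.65%). The split was 132 and 374 with centred arrays, 206 and 343 by quantile normalization and 7 and 94 at 2-fold, and it turned to 422 and 350 among genes at or above the median level and to 1450 and 1056 by the methods' unadjusted test. The 5 lowest were Selp, the adhesion molecule P-selectin (-3.53, limma adjusted p = 0.000188), Lcn2, the iron-binding lipocalin 2 (-2.72, adjusted p = 0.00195), the chemokine Cxcl10 (-2.61, adjusted p = 0.000401), Socs3 (-2.47, adjusted p = 0.00103) and Adamts4 (-2.46, adjusted p = 0.00056). The 5 highest were Mir1a-2, Mir208a, Mir1a-1, Mir133a-1 and Mir133a-2, with the values given above. Against the sham hearts that also served for IP0, 4.79% of all genes were called after I30R60, 2.78% as rises. The comparisons share these hearts, so their values are only set side by side. Gadd45g had a difference of 1.69 after IP0 and 2.50 after I30R60, Cebpd of 0.90 and 1.88, and Rasd1 of 1.33 and 1.33. Atf3, Adamts1 and Cebpd were lower after IP0 than after I30R60, with differences of -1.09, -0.90 and -0.98 (adjusted p = 0.0389, 0.00273 and 0.00289). Mir1a-2, Rgs1, Nckipsd and Rnasek were higher, a direction favoured by their choice in the same IP0 hearts. Nckipsd read 5.85, 5.97 and 5.82 after I30R60 and Rnasek 8.43, 8.53 and 8.53, below every IP0 heart (0.61 and 0.50, adjusted p = 0.000869 and 0.00893). The count of 541 was 276, 243 and 306 without IP0 replicate 1, 2 or 3 and 239 and 314 without I30R60 replicate 1 or 3.

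**Figure D5:**
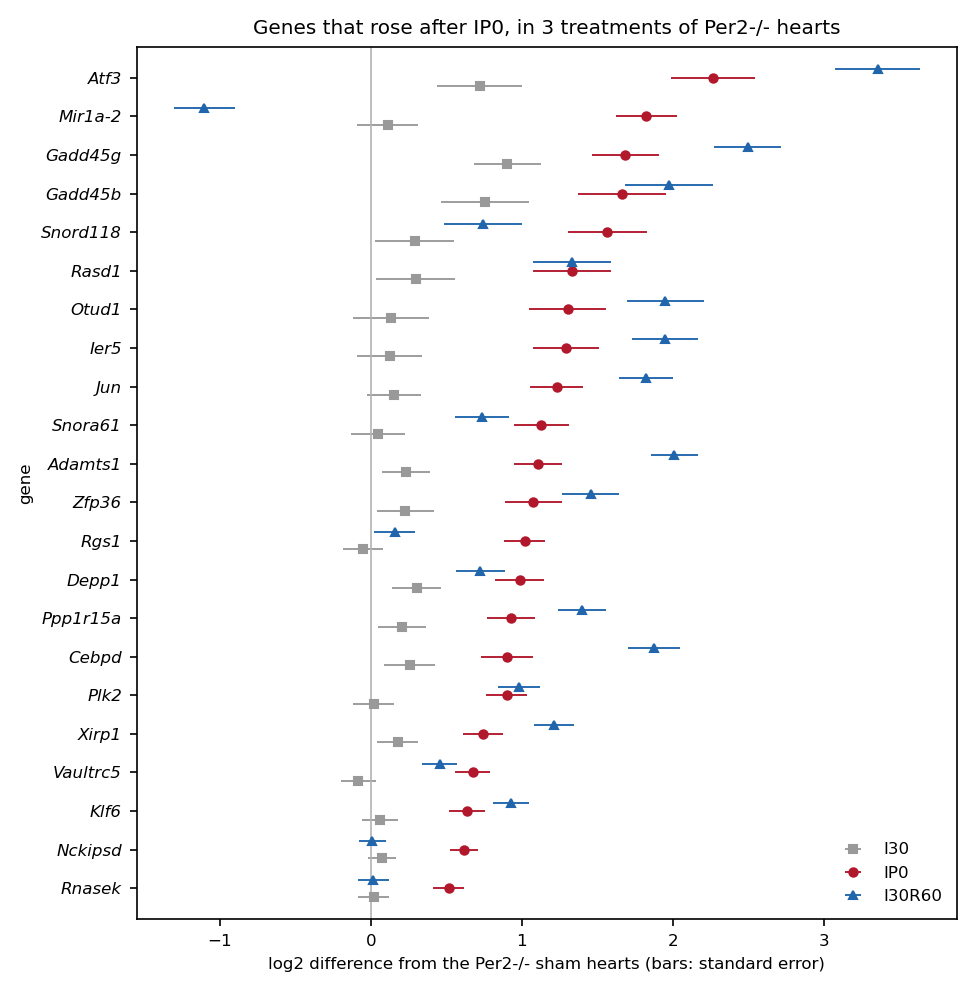
Log2 difference from the same 3 Per2-/- sham hearts (horizontal axis) after I30 (grey squares), IP0 (red circles) and I30R60 (blue triangles) for the 22 genes that rose after IP0, with standard errors as bars. The 3 treatments share their sham hearts. Mir1a-2 lies at 1.82 after IP0 and -1.10 after I30R60, and Atf3 at 2.27 and 3.36.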

How the data were processed

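RNA of whole left ventricles was measured on Affymetrix Mouse Gene ST arrays, 1 array per sample, on 1 plate. The methods and the series' design text name different versions of the array, and which was used is not settled here. Per the methods, the authors labelled 150 ng of total RNA and processed the arrays with RMA (background correction, quantile normalization and summary by probe set) in Partek Genomics Suite 6.6. The deposited values are log2 intensities, 1 per probe set and array, with no detection calls. Of 35555 probe sets, 21218 were paired with 1 gene symbol, 1881 with several and 12456 were not listed. They gave 18820 genes, 1386 of them with over 1 probe set.

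Groups were taken from the labels. A model of 8 group means over the 24 arrays was fitted with limma 3.58.1 in R 4.3.3 (16 residual degrees of freedom, empirical Bayes variances), and p-values were adjusted by Benjamini-Hochberg over all genes. Genes at an adjusted p under 0.05 were called. The interaction was the difference between the IP0 effects of both genotypes. The median standard error of a difference was 0.14 on the log2 scale. The labels do not say whether replicates were separate animals, so p-values measure the spread between these samples, and the number of arrays limits the precision. The text names every called gene, and members of gene lists by size or p. The genes and lists were chosen with earlier results of these data known. The fits were checked on simulated data. Alternatives were the 6 arrays alone, other variance, weight, scaling and probe set settings, a replicate block, thresholds, the methods' t-test and leaving out each array. Same-numbered arrays had correlated deviations of 0.0401, 0.0572 and 0.0524, and the numbers were not taken as pairs. Figures were drawn with matplotlib 3.10.9.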

Additional observations from a re-analysis of the deposited data

Results flagged for a closer look

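The metallothioneins Mt1 and Mt2, which bind zinc and copper, had differences of opposite sign in the 2 genotypes, none of them called, with every IP0 replicate on one side of its sham mean. Mt1 read 10.27, 10.44 and 9.61 in Per2-/- sham and 10.61, 10.63 and 10.82 in Per2-/- IP0 hearts, a difference of 0.58 (limma adjusted p = 0.213), against -0.09 in wildtype hearts. Mt2 read 11.73, 11.86 and 10.03 in Per2-/- sham and a mean of 12.04 ± 0.03 (SD, n = 3) in Per2-/- IP0 hearts, a difference of 0.83 (adjusted p = 0.421), against -0.16 in wildtype hearts. In both genes sham replicate 3 was far below the other 5 Per2-/- hearts, and without it the Per2-/- differences were 0.33 for Mt1 and 0.25 for Mt2. The interaction was 0.66 for Mt1 (limma unadjusted p = 0.00717, adjusted p = 0.927) and 0.99 for Mt2 (unadjusted p = 0.0318, adjusted p = 0.997), so neither difference passed the test. The cause was not tested.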

How the results depend on the processing

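The 30 calls of IP0 against sham Per2-/- hearts (22 rises, 8 falls) became 1 rise and no fall with only the 6 arrays in the model. They became 51 (37, 14) with a variance trend and robust variances, 49 (34, 15) with array weights and 47 (35, 12) among genes at or above the median level. Centring the arrays gave 33 (30, 3), quantile normalization 30 (24, 6), and all probe sets 31 (23, 8). There were 50 (35, 15) at an adjusted p under 0.10 and 13 rises with no fall at 2-fold. Without both arrays rich in atrial transcripts 11 genes were called (9, 2), and only 8 of these were among the 30. The replicate block, which does not rest on a shown pairing, gave 23 (19, 4), with Il6 among genes that then passed (adjusted p = 0.0414). The methods' t-test had 1487 genes (659, 828) at its unadjusted threshold and 0 after Benjamini-Hochberg. Leaving out 1 array gave 10 to 26 calls, with 9 to 21 rises and 1 to 5 falls. The interaction stayed at 0 calls in each setting run.

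IP0 against I30 (33 calls) gave 0 with the 6 arrays alone, 76 with array weights, 20 centred, 19 by quantile normalization, 9 without both atrial-rich arrays, 8 at 2-fold and 91 at an adjusted p under 0.10. Its t-test gave 1806 unadjusted and 0 adjusted, and leaving out 1 array 4 to 43. IP0 against I30R60 (541 calls) gave 169 with the 6 arrays alone, 322 without both atrial-rich arrays, 101 at 2-fold, 899 at an adjusted p under 0.10, 2506 and 2 by the t-test, and 239 to 418 without 1 array. The difference of Hspa8 turned to -0.0064 with array weights and -0.0351 without both atrial-rich arrays, ranged from -0.0387 (without sham replicate 3) to 0.0669 without 1 array, and that of Ppp1r3c turned to -0.045 without both atrial-rich arrays. The cause was not tested.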

Other observations

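Heat shock genes did not pass the test in Per2-/- hearts after IP0: 0 of 23 were called, with a median of 0.05. The chaperone Hspa8 read 12.56, 12.61 and 12.39 in sham and 12.57, 12.52 and 12.54 in IP0 hearts, a difference of 0.02 (limma adjusted p = 0.976). Its cochaperones Dnajb1 and Bag3 had differences of 0.59 and 0.35 (adjusted p = 0.564 and 0.206). No gene was called among 10 genes of adenosine in preconditioning (median -0.05), 22 hypoxia-inducible factors and targets (0.08), 20 of antioxidant defence (0.07) and 26 ion channels (0.01). Nt5e, the enzyme CD73 that makes adenosine, had a difference of 0.38 (adjusted p = 0.696), and the pacemaker channel Hcn4 one of 0.48 (adjusted p = 0.454). All 6 fibroblast markers had differences below 0, as had 10229 of all 18820 genes, and the median of the 6 was -0.28. The largest was that of Pdgfra, a growth factor receptor, at -0.43 (adjusted p = 0.373). Their summed level was 12.03, 11.99 and 12.30 in sham replicates 1, 2 and 3 and 11.92 to 11.95 in IP0 hearts. The highest of these was thus the sham array rich in atrial transcripts.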
